A study of Mus musculus with 16 samples.

Results

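The genes of MHC class I and class II antigen presentation were followed in mouse retina after optic nerve crush, in mice given GNE-3511, which blocks dual leucine zipper kinase (DLK), or vehicle. The 30 genes were taken from a list of MHC, immunoproteasome and peptide loading genes. They were found by matching the Entrez identifiers of the files to gene symbols, and all 30 were among the 36528 identifiers measured. Of them 23 belong to the class I path and 7 to the class II path. RNA was measured in 16 retinas 3 days after crush, an injury to the axons of retinal ganglion cells. The 4 groups were crushed retina of mice given the inhibitor (crushed DLKi, n = 5), uncrushed retina of mice given the inhibitor (uncrushed DLKi, n = 5), crushed retina of mice given vehicle (crushed vehicle, n = 3) and uncrushed retina of mice given vehicle (uncrushed vehicle, n = 3). Mice received 75 mg/kg of it at 60 and 68 h after injury, and the labels name the vehicle MCT. The labels give 5 mice for each drug, and vehicle retinas beyond these 6 were not analysed here. The sources used here do not give strain, genotype, sex or age of the mice. Which retinas share a mouse is not stated, so that a p-value reflects only the spread between samples, which may be technical.

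MHC class I molecules carry peptides cut by the proteasome to the cell surface, where CD8 T cells and natural killer cells read them. A heavy chain folds with beta-2-microglobulin, and the transporter TAP, tapasin and chaperones of the endoplasmic reticulum load it. Class II molecules present peptides from endosomes to CD4 T cells and are largely restricted to professional antigen presenting cells. The quiet retina is known for low levels of both classes. The transactivator NLRC5 drives class I genes and its relative CIITA drives class II genes, and both act through the same promoter elements, the X and Y boxes. Interferons raise class I genes through interferon response elements in their promoters.

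Promoter sequence was available for 24 of the 30 genes in the RefSeq table of GRCm38.p6, which holds 250 bases before and 50 bases after each start site. Stretches of 140 bases are shown for 6 class I genes that rose after crush and for 2 class II genes that were not called, because the regulatory elements differ in what they share. They lie at chr2:122147524-122147663 (plus strand) for B2m, chr17:34000334-34000473 (minus strand) for H2-K1, chr17:35262931-35263070 (plus strand) for H2-D1, chr17:35379452-35379591 (plus strand) for H2-Q4, chr17:35424685-35424824 (plus strand) for H2-Q6, chr17:36032724-36032863 (minus strand) for H2-T23, chr17:34287842-34287981 (minus strand) for H2-Aa and chr17:34305698-34305837 (plus strand) for H2-Eb1. Each is written 5′ to 3′ on the strand of its gene. Capitals mark matches to the interferon-stimulated response core, the heavy-chain interferon element AGTTTCACTTCT, the X element and the Y box core CCAAT, each searched on both strands. The response core is GAAA repeated after a gap of any 2 bases. The X element is TG, then any base, then TGAC.
B2m: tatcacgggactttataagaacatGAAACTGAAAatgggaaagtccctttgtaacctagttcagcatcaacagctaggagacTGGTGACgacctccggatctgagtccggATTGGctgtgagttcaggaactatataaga
H2-K1: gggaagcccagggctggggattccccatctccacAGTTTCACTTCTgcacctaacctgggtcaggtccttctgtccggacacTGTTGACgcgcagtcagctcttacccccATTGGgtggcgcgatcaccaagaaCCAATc
H2-D1: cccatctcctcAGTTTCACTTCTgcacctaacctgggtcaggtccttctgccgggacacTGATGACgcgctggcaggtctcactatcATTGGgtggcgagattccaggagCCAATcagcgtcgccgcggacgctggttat
H2-Q4: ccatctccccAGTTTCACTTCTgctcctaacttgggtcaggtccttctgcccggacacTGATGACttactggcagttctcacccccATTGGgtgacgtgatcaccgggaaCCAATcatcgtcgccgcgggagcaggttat
H2-Q6: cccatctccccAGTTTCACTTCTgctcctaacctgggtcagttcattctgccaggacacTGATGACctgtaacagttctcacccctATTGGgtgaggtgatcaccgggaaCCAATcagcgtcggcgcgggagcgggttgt
H2-T23: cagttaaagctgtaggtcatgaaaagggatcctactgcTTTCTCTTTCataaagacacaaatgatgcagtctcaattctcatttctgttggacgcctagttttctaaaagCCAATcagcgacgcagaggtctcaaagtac
H2-Aa: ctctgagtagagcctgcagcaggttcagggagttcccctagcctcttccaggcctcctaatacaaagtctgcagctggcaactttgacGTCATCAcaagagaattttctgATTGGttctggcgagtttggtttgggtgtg
H2-Eb1: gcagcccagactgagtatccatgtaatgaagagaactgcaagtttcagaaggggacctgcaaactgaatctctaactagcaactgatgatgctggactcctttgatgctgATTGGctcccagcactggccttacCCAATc

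The element AGTTTCACTTCT stood in the promoters of the K, D and Q region genes H2-K1, H2-D1, H2-Q4, H2-Q6 and H2-Q7, and in 11 of 32851 RefSeq promoters of the same length (0.0335%). It was picked after the sequences had been seen, and these are closely related genes. The interferon-stimulated response core, on either strand, was found in 3.44% of all promoters and in those of B2m, H2-T22, H2-T23, Erap1 and Psme1. The X element, on either strand, was in the promoters of B2m and all 8 heavy chain genes, in that of the chaperone gene Canx, in 1 of the 4 class II promoters (H2-Aa) and in 14.1% of all promoters. In H2-T23 it lies 19 bases before the start site, beyond the stretch shown. The letters of the X element were also picked after the promoters had been read. A promoter without a match to them may still hold an X box. The Y box core was in the same 9 promoters, in those of Calr, Canx, Pdia3, Psmb9, Tap1 and Tapbp, in those of all 4 class II genes with a sequence (H2-Aa, H2-Eb1, H2-DMa and H2-DMb1) and in 37.4% of all promoters. Neither the response core nor the heavy-chain interferon element was in these 4 class II promoters. Both were also absent from those of 10 of the 20 class I path genes with a sequence. Among these 10 were Tap1, Psmb8 and Psmb9, which rose. A further interferon element, GAS, was searched as well. It was in the promoters of Psmb8 and H2-M3, in 0 of the 4 class II promoters and in 8.3% of all promoters. A kappa B element was in those of H2-Q4 and H2-Aa (1.68% of all promoters). Its heavy-chain form was in those of H2-D1, H2-K1, H2-Q6 and H2-Q7 (0.353%). A match of letters is not a measured binding site.

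Levels are given as the authors' nRPKM, reads per length of gene and per depth, scaled by a size factor for each library, so that genes can be compared per length. The libraries held 22.35 to 44.75 M counted reads. The chaperone genes stood highest among the 30, with medians over 16 libraries of 133.3 nRPKM for Calr (calreticulin), 82.2 nRPKM for Canx (calnexin) and 54.4 nRPKM for Pdia3. B2m followed at 38.4 nRPKM, Tapbp at 26.1 nRPKM, H2-D1 at 22.9 nRPKM, Psme1 at 21.1 nRPKM and H2-K1 at 9.86 nRPKM. The class II genes were low. Their medians were 2.88 nRPKM for Cd74, 1.83 nRPKM for H2-DMa, 1.63 nRPKM for H2-Ab1, 1.09 nRPKM for H2-Aa, 0.736 nRPKM for H2-Eb1, 0.348 nRPKM for H2-DMb1 and 0.178 nRPKM for Ciita. The ranges of H2-DMa and H2-Ab1 overlapped over libraries, as did those of H2-Aa and H2-Eb1. Nlrc5 had the lowest median over all libraries at 0.146 nRPKM, with means of 0.362 nRPKM in crushed and 0.0739 nRPKM in uncrushed retinas. In crushed retinas Ciita, at a mean of 0.179 nRPKM, was lower than Nlrc5. Behind these levels stood 74 to 279 reads per library for Cd74, 15 to 81 for H2-Aa, 3 to 28 for H2-DMb1, 31 to 64 for Ciita, 6 to 32 for H2-Q7 and 19 to 215 for Nlrc5. Such counts limit the precision of these values, least for Cd74, which had the most reads of the class II genes. The level of Cd74 also varied within a group, from 1.25 to 5.06 nRPKM in uncrushed DLKi retinas.

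The crush comparisons asked how the injured retina differed from the uncrushed one under each drug. In mice given the inhibitor 12 of the 23 class I path genes rose and 0 fell (edgeR quasi-likelihood test, adjusted p at most 0.05 over all 19391 genes tested), where 3.29% of all genes rose and 2.04% fell. These 12 were B2m, H2-K1, H2-D1, H2-Q4, H2-Q6, H2-T22, H2-T23, Tap1, Erap1, Psmb8, Psmb9 and Nlrc5. In mice given vehicle, with 3 retinas a group, 4 of 23 rose and 0 fell, namely H2-D1, H2-Q4, Psmb8 and Nlrc5, where 1.77% of all genes rose and 0.861% fell. The mean crush effect over both drugs called 15 of 23, where 5.22% of all genes rose, and added Tap2, Tapbp and Psmb10 to the 12. The median log2 change of the class I path was 0.66 with the inhibitor and 0.38 with vehicle, against -0.0012 and -0.0028 over all genes tested in the same comparisons. Without the 3 chaperones it was 0.72 and 0.75, and the vehicle median of all 23 was 0.23 without crushed vehicle replicate 2. All 30 genes passed the filter on low counts. RNA of whole retina cannot tell more RNA per cell from more cells of a type. The crush effects under the 2 drugs share no library, and their difference is tested at the end.

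**Figure D1:**
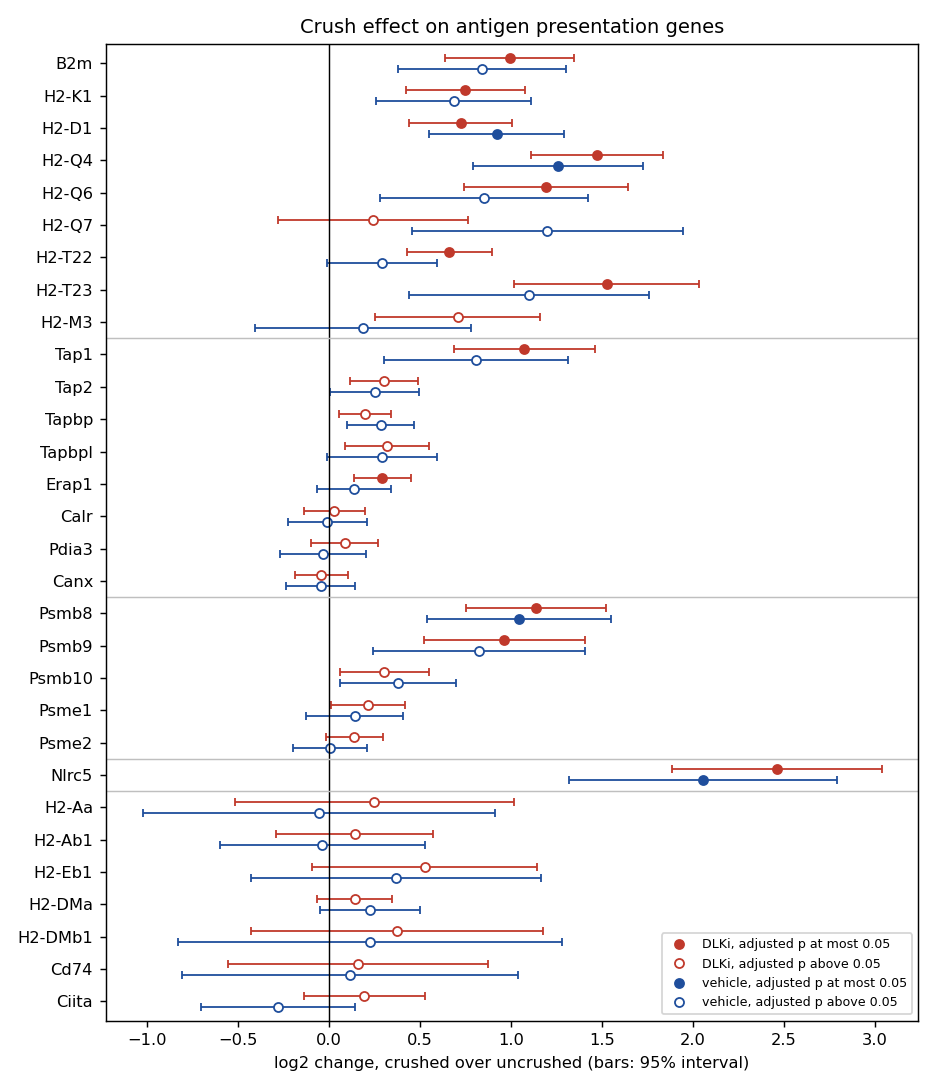
The log2 change of crushed over uncrushed retina (x axis, with 95% intervals as bars) is drawn for each of the 30 genes, in red for mice given the inhibitor and in blue for mice given vehicle; filled points have an adjusted p of at most 0.05. Class I genes from B2m to Nlrc5 lie mostly right of 0, up to 2.46 for Nlrc5, and the intervals of all 7 class II genes at the bottom cross 0.

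Of B2m and the 8 heavy chain genes 7 rose with the inhibitor and 2 with vehicle. B2m (chromosome 2, 122147687 to 122153082, GRCm38), the light chain of all class I molecules, measured 71.5, 59.3, 42.1, 71.0 and 36.7 nRPKM in crushed DLKi retinas, against 40.7, 23.3, 27.4, 24.4 and 25.3 nRPKM in uncrushed DLKi retinas. With vehicle it measured 52.4, 51.5 and 40.0 nRPKM in crushed and 27.3, 25.1 and 27.9 nRPKM in uncrushed retinas. The vehicle groups did not overlap, while uncrushed DLKi replicate 1 stood above the lowest crushed DLKi library. The log2 change of B2m was 1.00 ± 0.18 (SE) with the inhibitor (adjusted p = 0.00221) and 0.84 ± 0.24 with vehicle (adjusted p = 0.0722). The vehicle value passed at adjusted p = 0.0116 in DESeq2, 0.0409 without the filter on low counts and 0.0107 when the vehicle groups alone were fitted. It also passed without uncrushed DLKi replicate 1 or crushed DLKi replicate 5 (adjusted p = 0.032 to 0.034).

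H2-D1 (chromosome 17, 35263094 to 35267497), a classical heavy chain, measured 42.0, 35.8, 26.6, 29.8 and 24.4 nRPKM in crushed DLKi retinas, against 21.4, 16.6, 21.0, 18.6 and 18.6 nRPKM in uncrushed DLKi retinas. In mice given vehicle the levels were 33.7, 38.0 and 25.0 nRPKM in crushed and 13.5, 18.5 and 18.9 nRPKM in uncrushed retinas. All 8 crushed libraries stood above all 8 uncrushed ones. Its log2 changes were 0.72 ± 0.14 with the inhibitor (adjusted p = 0.00466) and 0.92 ± 0.19 with vehicle (adjusted p = 0.00997). The vehicle call was lost without crushed vehicle replicate 2 (adjusted p = 0.0612). H2-K1 (chromosome 17, 33996012 to 34000619), the other classical heavy chain, measured 18.03, 14.6, 10.3, 15.3 and 9.91 nRPKM in crushed DLKi retinas, against 9.98, 6.46, 8.93, 6.90 and 8.36 nRPKM in uncrushed DLKi retinas. Vehicle retinas measured 14.5, 14.6 and 9.81 nRPKM in crushed and 6.76, 8.51 and 8.88 nRPKM in uncrushed retinas. The vehicle groups were apart, and the inhibitor groups touched at 1 library each. H2-K1 rose by 0.75 ± 0.17 on the log2 scale with the inhibitor (adjusted p = 0.0103) and its vehicle value was 0.69 ± 0.22 (adjusted p = 0.134 in edgeR and 0.0458 in DESeq2).

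With the inhibitor H2-T23, H2-Q4 and H2-Q6 had the largest changes of the heavy chain group, and H2-Q7 and H2-T22 of the same regions the smallest. H2-Q4 (chromosome 17, 35379617 to 35384674), a Qa heavy chain, measured 4.31, 4.37, 2.59, 4.88 and 2.54 nRPKM in crushed DLKi retinas, against 1.62, 1.16, 1.40, 1.14 and 1.43 nRPKM in uncrushed DLKi retinas. The vehicle values were 4.84, 4.24 and 3.00 nRPKM in crushed and 1.66, 1.66 and 1.74 nRPKM in uncrushed retinas. No crushed library reached down to an uncrushed one under either drug. H2-Q4 rose by 1.47 ± 0.19 on the log2 scale with the inhibitor (adjusted p = 7.84e-05) and by 1.26 ± 0.24 with vehicle (adjusted p = 0.00547). H2-T23 (chromosome 17, 36029977 to 36032701) encodes Qa-1, which presents leader peptides of other class I chains to natural killer receptors. It measured 4.64, 4.40, 2.90, 8.56 and 3.14 nRPKM in crushed DLKi retinas, against 2.28, 1.34, 1.56, 1.32 and 1.73 nRPKM in uncrushed DLKi retinas. With vehicle it measured 4.00, 5.06 and 2.76 nRPKM in crushed and 2.03, 1.60 and 1.94 nRPKM in uncrushed retinas. All crushed libraries were higher than all uncrushed ones, and crushed DLKi replicate 4 stood far above the rest. H2-T23 rose by 1.53 ± 0.26 with the inhibitor (adjusted p = 0.00127), and its vehicle value was 1.10 ± 0.34 (adjusted p = 0.114 in edgeR, 0.0278 in DESeq2 and 0.0211 without crushed DLKi replicate 4).

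H2-Q6, another Qa chain, measured 1.01, 0.897, 0.669, 0.857 and 0.590 nRPKM in crushed DLKi retinas, against 0.393, 0.328, 0.451, 0.270 and 0.312 nRPKM in uncrushed DLKi retinas. In mice given vehicle the levels were 1.20, 0.881 and 0.671 nRPKM in crushed and 0.731, 0.527 and 0.304 nRPKM in uncrushed retinas. The inhibitor groups were apart and the vehicle groups overlapped. Its log2 changes were 1.20 ± 0.23 with the inhibitor (adjusted p = 0.00349) and 0.85 ± 0.29 with vehicle (adjusted p = 0.184). Without the 2 shallowest vehicle libraries, uncrushed replicate 1 and crushed replicate 3, the vehicle value was 1.31 ± 0.31 (adjusted p = 0.039). H2-T22, a T-region chain known as a ligand of gamma delta T cells, measured 2.11, 2.21, 2.02, 3.03 and 1.83 nRPKM in crushed DLKi retinas, against 1.47, 1.40, 1.44, 1.52 and 1.25 nRPKM in uncrushed DLKi retinas. Vehicle retinas measured 1.90, 2.22 and 2.03 nRPKM in crushed and 1.71, 1.45 and 1.88 nRPKM in uncrushed retinas. Both comparisons were free of overlap, with vehicle by a narrow margin. H2-T22 rose by 0.66 ± 0.12 with the inhibitor (adjusted p = 0.00204), and its vehicle value was 0.29 ± 0.15 (adjusted p = 0.579).

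The remaining heavy chains were not called. H2-Q7, which encodes Qa-2, ranged from 0.232 to 0.489 nRPKM in crushed and from 0.185 to 0.376 nRPKM in uncrushed DLKi retinas, with a log2 change of 0.24 ± 0.27 (adjusted p = 0.819). The vehicle values were 0.496, 0.355 and 0.251 nRPKM in crushed and 0.134, 0.154 and 0.186 nRPKM in uncrushed retinas, a log2 change of 1.20 ± 0.38 (adjusted p = 0.134). Those vehicle groups did not overlap. The mean effect of H2-Q7 passed without crushed DLKi replicate 5 or crushed vehicle replicate 3 (adjusted p = 0.0462 and 0.0437). H2-M3, which presents N-formylated peptides, measured 1.54, 1.77, 1.25, 1.09 and 1.18 nRPKM in crushed DLKi retinas, against 1.42, 0.626, 0.655, 0.753 and 0.757 nRPKM in uncrushed DLKi retinas. Uncrushed DLKi replicate 1 stood among the crushed libraries and apart from its own group. The log2 change of H2-M3 was 0.71 ± 0.23 (adjusted p = 0.0964), and without that library it passed at adjusted p = 0.00675. Its vehicle value was 0.19 ± 0.30 (adjusted p = 0.961).

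Heavy chains are near copies of each other and the authors counted uniquely aligned reads. Of the 50-base stretches of each gene's annotated transcripts, 90.4% were found in no other gene for H2-K1, 87.2% for H2-D1, 85.5% for H2-T23, 73.5% for H2-Q7, 65% for H2-Q6, 63.6% for H2-Q4 and 46.5% for H2-T22, against 100% for B2m. The levels of the Q genes and of H2-T22 therefore rest on only a part of their sequence and are uncertain. Exons of another gene on the opposite strand covered 29.4% of H2-T22 and 19.1% of H2-Q4, and the kit does not mark strand. Outside the heavy chains such exons covered 18.5% of Tap2, 14.7% of Psmb8 and 11.5% of Erap1. In Tapbp 29% was covered, by exons of genes on both strands.

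**Figure D2:**
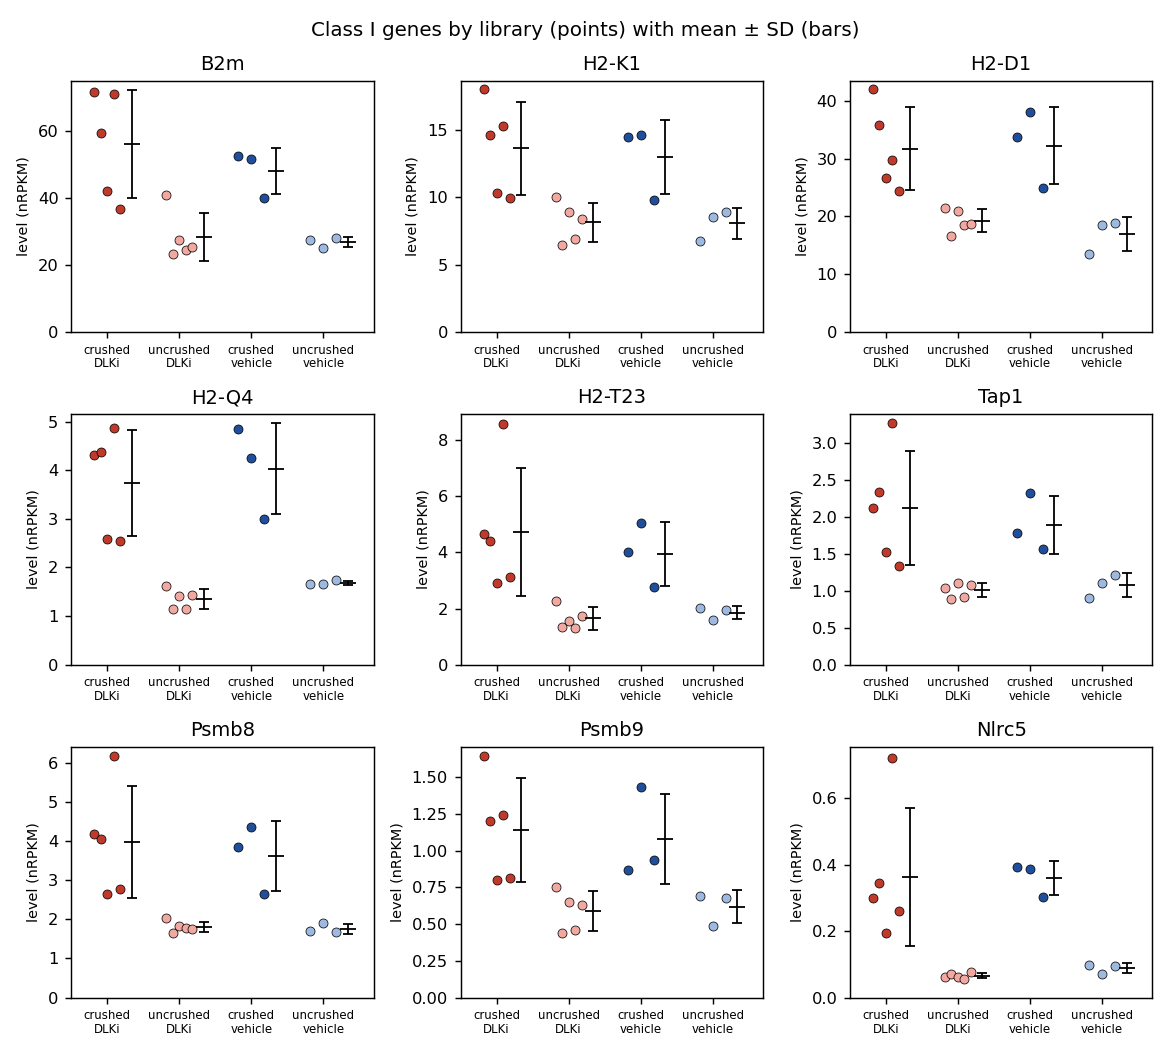
Levels of 9 class I path genes (y axis, nRPKM, from 0) are plotted for every library as points, with mean ± SD as bars beside them, in crushed DLKi (n = 5), uncrushed DLKi (n = 5), crushed vehicle (n = 3) and uncrushed vehicle (n = 3) retinas. In H2-D1, H2-Q4, H2-T23, Tap1, Psmb8, Psmb9 and Nlrc5 every crushed library lies above every uncrushed one, while B2m and H2-K1 touch in the inhibitor groups.

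Of the 8 peptide supply and loading genes 2, Tap1 and Erap1, rose with the inhibitor and 0 with vehicle, and 4 rose in the mean over both drugs. With vehicle DESeq2 called 0 of the 8 as well, and 2 had an unadjusted p below 0.05 in edgeR. Tap1 (chromosome 17, 34187556 to 34197225), a subunit of the peptide transporter, measured 2.12, 2.34, 1.52, 3.28 and 1.33 nRPKM in crushed DLKi retinas, against 1.04, 0.894, 1.11, 0.917 and 1.08 nRPKM in uncrushed DLKi retinas. With vehicle it measured 1.78, 2.33 and 1.57 nRPKM in crushed and 0.899, 1.11 and 1.22 nRPKM in uncrushed retinas. Crushed and uncrushed libraries did not overlap under either drug. Tap1 rose by 1.07 ± 0.20 on the log2 scale with the inhibitor (adjusted p = 0.00239), and its vehicle value was 0.81 ± 0.26 (adjusted p = 0.136). The partner subunit gene Tap2 measured 5.67, 5.65, 4.54, 6.44 and 4.53 nRPKM in crushed DLKi retinas, against 4.63, 4.17, 4.42, 4.07 and 4.48 nRPKM in uncrushed DLKi retinas. In mice given vehicle the levels were 5.33, 5.63 and 4.58 nRPKM in crushed and 3.91, 4.57 and 4.55 nRPKM in uncrushed retinas. The higher libraries were crushed ones, with an overlap in the inhibitor groups. Its log2 changes were 0.31 ± 0.10 (adjusted p = 0.0807) with the inhibitor and 0.25 ± 0.12 (adjusted p = 0.511) with vehicle. The mean over both drugs, 0.28 ± 0.08, passed (adjusted p = 0.0326) but not without any 1 of 9 libraries, crushed DLKi replicates 1, 2 and 4, crushed vehicle 1 and 2, uncrushed DLKi 2 and 4 and uncrushed vehicle 1 and 2 (adjusted p up to 0.109). The inhibitor value of Tap2 passed without crushed DLKi replicate 3 or 5 (adjusted p = 0.0355 and 0.0351) and in DESeq2 (adjusted p = 0.0475).

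Tapbp encodes tapasin, which bridges the transporter and the heavy chain. It measured 29.0, 28.1, 25.4, 30.5 and 24.5 nRPKM in crushed DLKi retinas, against 26.8, 23.5, 23.1, 23.3 and 23.6 nRPKM in uncrushed DLKi retinas. Vehicle retinas measured 29.0, 30.8 and 27.5 nRPKM in crushed and 21.3, 23.4 and 26.9 nRPKM in uncrushed retinas. The vehicle groups were apart by a small gap, and uncrushed DLKi replicate 1 overlapped the crushed group. Its mean change over both drugs was small, 0.24 ± 0.06 on the log2 scale, and passed (adjusted p = 0.013), while the values under each drug, 0.20 ± 0.07 and 0.29 ± 0.09, did not (adjusted p = 0.155 and 0.157). Erap1, the aminopeptidase that trims peptides in the endoplasmic reticulum, measured 4.47, 4.89, 4.19, 5.46 and 4.37 nRPKM in crushed DLKi retinas, against 4.06, 4.21, 3.39, 3.78 and 3.64 nRPKM in uncrushed DLKi retinas. The vehicle values were 5.04, 4.42 and 4.12 nRPKM in crushed and 4.12, 4.16 and 4.05 nRPKM in uncrushed retinas. The groups overlapped under both drugs. Erap1 rose by 0.30 ± 0.08 with the inhibitor (adjusted p = 0.0366), a call lost without any 1 of 7 libraries, crushed DLKi replicates 1, 2 and 4, uncrushed DLKi 3, 4 and 5 and uncrushed vehicle 2 (adjusted p up to 0.112). Its vehicle value was 0.14 ± 0.10 (adjusted p = 0.81), and the call of its mean effect (adjusted p = 0.048) was lost without any library except crushed DLKi 3, uncrushed DLKi 1 and 2 and crushed vehicle 3 (adjusted p up to 0.188). The mean call was lost with DESeq2's size factors in edgeR (adjusted p = 0.0523) and without the filter on low counts (0.0637) as well. Tapbpl, a tapasin relative that edits peptides, stood at 0.32 ± 0.12 with the inhibitor and 0.29 ± 0.15 with vehicle (adjusted p = 0.165 and 0.582). The mean effect of Tapbpl passed without crushed DLKi replicate 5 or crushed vehicle replicate 3 (adjusted p = 0.0286 and 0.0278) and in DESeq2 (adjusted p = 0.0353). Calr, Pdia3 and Canx, abundant chaperones that serve many other proteins, ranged from 113.3 to 155.8, 41.7 to 64.67 and 65.93 to 92.5 nRPKM over all libraries in that order. They had log2 changes from -0.04 to 0.09, with interval ends between -0.27 and 0.27.

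The immunoproteasome is a form of the proteasome whose inducible catalytic subunits favour peptides that fit class I. Psmb8 (chromosome 17, 34198195 to 34201454), the LMP7 subunit, measured 4.19, 4.06, 2.65, 6.19 and 2.78 nRPKM in crushed DLKi retinas, against 2.03, 1.66, 1.82, 1.77 and 1.76 nRPKM in uncrushed DLKi retinas. With vehicle it measured 3.86, 4.37 and 2.64 nRPKM in crushed and 1.71, 1.90 and 1.68 nRPKM in uncrushed retinas. Every crushed library was above every uncrushed one. Psmb8 rose by 1.14 ± 0.20 on the log2 scale with the inhibitor (adjusted p = 0.00149) and by 1.04 ± 0.26 with vehicle (adjusted p = 0.0372). The vehicle call was lost without the 2 shallowest vehicle libraries (adjusted p = 0.053). It was also lost without any 1 of crushed vehicle replicates 1 and 2, uncrushed vehicle 1, 2 and 3 and uncrushed DLKi 2 and 4 (adjusted p up to 0.169). Psmb9 (chromosome 17, 34182030 to 34187330), the LMP2 subunit, measured 1.65, 1.20, 0.799, 1.24 and 0.815 nRPKM in crushed DLKi retinas, against 0.756, 0.441, 0.654, 0.462 and 0.632 nRPKM in uncrushed DLKi retinas. In mice given vehicle the levels were 0.869, 1.44 and 0.936 nRPKM in crushed and 0.693, 0.489 and 0.677 nRPKM in uncrushed retinas. Again no crushed library fell among the uncrushed ones. Psmb9 rose by 0.96 ± 0.23 with the inhibitor (adjusted p = 0.0147, or 0.0541 without crushed DLKi replicate 1), and its vehicle value was 0.83 ± 0.30 (adjusted p = 0.223).

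Psmb10, the MECL-1 subunit, measured 7.96, 7.75, 5.62, 6.28 and 5.25 nRPKM in crushed DLKi retinas, against 6.09, 4.50, 5.76, 5.50 and 4.80 nRPKM in uncrushed DLKi retinas. Vehicle retinas measured 5.86, 7.97 and 6.46 nRPKM in crushed and 5.14, 5.45 and 5.04 nRPKM in uncrushed retinas. The vehicle groups were apart and the inhibitor groups overlapped. Its log2 changes, 0.30 ± 0.12 with the inhibitor and 0.38 ± 0.16 with vehicle, did not pass (adjusted p = 0.234 and 0.384). The mean of 0.34 ± 0.10 passed narrowly (adjusted p = 0.0469) and was lost without any library except crushed DLKi 3 and 5, uncrushed DLKi 1 and crushed vehicle 1 (adjusted p up to 0.163), and without the 2 shallowest vehicle libraries (0.1). The proteasome activator genes Psme1 and Psme2 had values of 0.22 ± 0.10 and 0.14 ± 0.08 with the inhibitor and of 0.14 ± 0.14 and 0.01 ± 0.10 with vehicle, and 0 of these passed. The 14 constitutive core subunit genes and the activator gene Psme3 gave a contrast to them. Of these 15, 0 were called under either drug by edgeR, 0 had an unadjusted p below 0.05, and DESeq2 called 0. Their log2 changes ran from -0.15 to 0.04 with the inhibitor and from -0.19 to 0.05 with vehicle. The subunits that Psmb8, Psmb9 and Psmb10 replace, encoded by Psmb5, Psmb6 and Psmb7, stood at -0.09, -0.03 and -0.02 with the inhibitor.

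Nlrc5 (chromosome 8, 94434335 to 94527272), the class I transactivator, had the largest change of the 30 genes. It measured 0.298, 0.344, 0.194, 0.721 and 0.260 nRPKM in crushed DLKi retinas, against 0.0624, 0.0710, 0.0626, 0.0567 and 0.0759 nRPKM in uncrushed DLKi retinas. The vehicle values were 0.392, 0.387 and 0.301 nRPKM in crushed and 0.0983, 0.0703 and 0.0940 nRPKM in uncrushed retinas. The lowest crushed library lay well above the highest uncrushed one. Nlrc5 was 5.51-fold higher in crushed DLKi retinas, a log2 change of 2.46 ± 0.29 (adjusted p = 4.35e-05). It was 4.16-fold higher in crushed vehicle retinas, a log2 change of 2.06 ± 0.38 (adjusted p = 0.00427), and both calls held without each library in turn. Its counterpart Ciita, the class II transactivator (chromosome 16, 10480014 to 10531064), did not pass. Ciita measured 0.150, 0.172, 0.120, 0.234 and 0.185 nRPKM in crushed DLKi retinas, against 0.122, 0.151, 0.172, 0.163 and 0.145 nRPKM in uncrushed DLKi retinas. With vehicle it measured 0.190, 0.189 and 0.188 nRPKM in crushed and 0.281, 0.210 and 0.204 nRPKM in uncrushed retinas, where all crushed libraries were below all uncrushed ones. Its log2 changes were 0.20 ± 0.17 with the inhibitor and -0.28 ± 0.22 with vehicle (adjusted p = 0.74 and 0.831).

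Of 12 transcription factors known to act on MHC promoters, 4 rose with the inhibitor, 2 rose with vehicle and 0 fell. With the inhibitor the log2 changes were 1.00 ± 0.16 for Irf9 and 0.96 ± 0.14 for Irf8, factors of interferon signalling, and 0.62 ± 0.12 for Irf1, an activator of class I promoters (adjusted p from 0.000356 to 0.00349). The other was Creb1 at 0.21 ± 0.05 (adjusted p = 0.0222), whose call was lost without crushed DLKi replicate 3 or 5 or uncrushed DLKi replicate 1 or 3 (up to 0.066). With vehicle Irf8 rose by 0.97 ± 0.19 (adjusted p = 0.00606) and Irf9 by 0.85 ± 0.21 (adjusted p = 0.0405). The vehicle call of Irf9 was lost without any 1 of the 6 vehicle libraries or uncrushed DLKi replicates 1 to 4 (up to 0.17). In the mean effect over both drugs edgeR called 6 of the 12 and DESeq2 called 7. Rfx5, Rfxap and Rfxank, subunits of the complex that holds NLRC5 and CIITA on the X box, were not called by edgeR in any of these comparisons, while DESeq2 called Rfxank in the mean effect (0.16 ± 0.05 and adjusted p = 0.0563 in edgeR). Of the interferon path, 0 of 6 receptor and Janus kinase genes tested were called under either drug by edgeR or by DESeq2, and 1 had an unadjusted p below 0.05 under each drug, with the inhibitor Ifnar2 at 0.21 ± 0.09. The ligand genes Ifng and Ifnb1 did not pass the filter. Ifng had 0 to 1 read in crushed and 0 to 2 reads in uncrushed libraries, and Ifnb1 had 0 to 1 read in crushed and 0 reads in uncrushed libraries. Of 8 further class I and class I-like genes tested H2-T10 alone was called, with the inhibitor (0.68 ± 0.12, adjusted p = 0.00239), and it shares sequence with H2-T22.

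No class II gene was called in any comparison, except in a fit with an added covariate given further on. With the inhibitor 0 of 7 had an unadjusted p below 0.05 in edgeR, with vehicle 0 of 7, and DESeq2 called 0 as well. Of all genes 5.33% were called in either direction with the inhibitor, 2.63% with vehicle and 8.45% in the mean effect. Cd74 (chromosome 18, 60803849 to 60812652), the invariant chain that escorts class II molecules, measured 4.32, 2.82, 2.56, 2.95 and 1.69 nRPKM in crushed DLKi retinas, against 5.06, 1.25, 1.62, 1.48 and 3.52 nRPKM in uncrushed DLKi retinas. In mice given vehicle the levels were 1.48, 4.11 and 4.15 nRPKM in crushed and 3.59, 2.52 and 2.94 nRPKM in uncrushed retinas. High and low libraries stood in all 4 groups, uncrushed DLKi replicate 1 being the highest and replicate 2 the lowest. Its log2 changes were 0.16 ± 0.36 with the inhibitor and 0.12 ± 0.47 with vehicle (adjusted p = 0.926 and 0.99). H2-Aa (chromosome 17, 34282744 to 34287823), the A alpha chain, measured 1.28, 1.01, 1.14, 0.991 and 0.726 nRPKM in crushed DLKi retinas, against 1.70, 0.4664, 0.616, 0.431 and 1.18 nRPKM in uncrushed DLKi retinas. Vehicle retinas measured 0.357, 1.59 and 1.78 nRPKM in crushed and 1.71, 1.03 and 1.19 nRPKM in uncrushed retinas. Crushed and uncrushed libraries were mixed, and crushed vehicle replicate 1 was lowest of all. H2-Eb1, the E beta chain, measured 1.15, 0.905, 0.938, 0.723 and 0.546 nRPKM in crushed DLKi retinas, against 1.00, 0.368, 0.4664, 0.321 and 0.840 nRPKM in uncrushed DLKi retinas. The vehicle values were 0.442, 1.05 and 1.25 nRPKM in crushed and 0.668, 0.698 and 0.749 nRPKM in uncrushed retinas. These groups overlapped too.

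The intervals say how large a class II change the data still allow. With the inhibitor the 95% interval of the log2 change was -0.52 to 1.02 for H2-Aa, -0.09 to 1.14 for H2-Eb1, -0.43 to 1.18 for H2-DMb1 and -0.55 to 0.88 for Cd74. The intervals of H2-Aa, H2-Eb1 and H2-DMb1 reach past the 1.00 of B2m, and that of Cd74 ends below it. The intervals of H2-Ab1, the A beta chain (-0.29 to 0.57), of H2-DMa, a chain of the peptide exchange factor DM (-0.06 to 0.35), and of Ciita (-0.14 to 0.53) ended below the 0.64 at which that of B2m began. With vehicle the class II values ran from -0.28 to 0.37. The median class II change was 0.20 with the inhibitor and 0.12 with vehicle, beside 0.66 and 0.38 for class I. Single libraries moved the class II medians. With the inhibitor the median was 0.54 without uncrushed DLKi replicate 1, 0.11 without uncrushed DLKi 2 and 0.31 without uncrushed DLKi 5 or crushed DLKi 5. With vehicle it was 0.32, -0.11 and -0.09 without crushed vehicle 1, 2 and 3 in turn, and -0.0067 without uncrushed vehicle 2. The vehicle median was 0.04 with the stricter filter on low counts (1 CPM in 3 libraries), 0.28 with the ciliary body score as covariate and 0.05 without the 2 shallowest vehicle libraries. No test was made between the classes, since the genes were chosen with earlier results known. Of 9 further genes of the class II path tested, 2 rose with the inhibitor and 0 with vehicle. They were Ctss (0.74 ± 0.14, adjusted p = 0.00311), the protease that degrades the invariant chain, and the costimulator gene Cd86 (1.16 ± 0.33, adjusted p = 0.0485). The call of Cd86 was lost without any library except crushed DLKi 5, uncrushed DLKi 1 and uncrushed vehicle 1 (adjusted p up to 0.149).

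**Figure D3:**
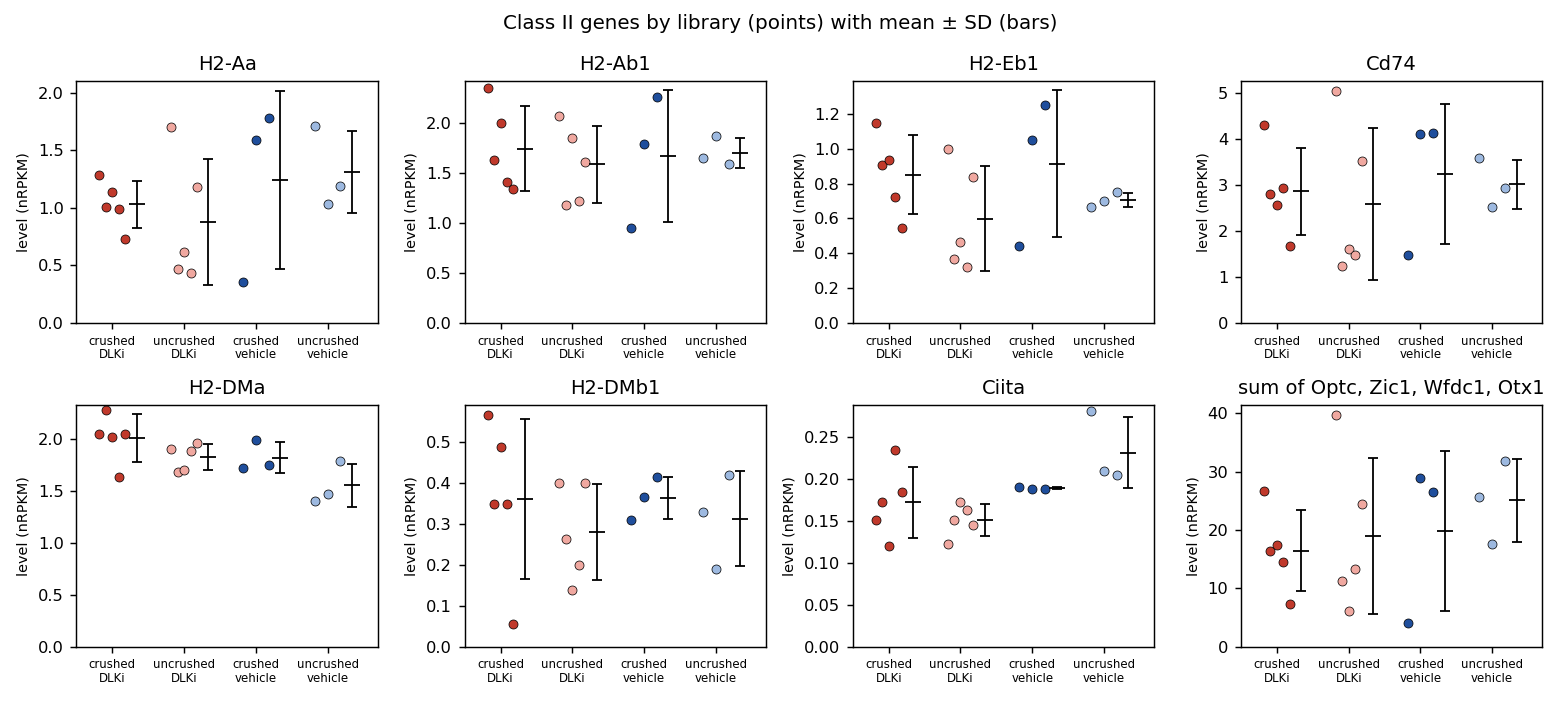
Levels of the 7 class II genes and the summed level of 4 ciliary body genes (y axes, nRPKM, from 0) are plotted for every library as points, with mean ± SD as bars beside them, in the same 4 groups. Crushed and uncrushed libraries overlap in every panel except the vehicle groups of Ciita, and uncrushed DLKi replicate 1, with 5.06 nRPKM of Cd74, is also highest in the ciliary body sum at 39.7 nRPKM.

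The libraries can also be set side by side without a fit. In the class I path, 9 of 23 genes had all 5 crushed DLKi libraries above all 5 uncrushed DLKi ones, where 3.4% of all genes did. With vehicle it was 14 of 23 (8.13% of all genes), and 7 of 23 had all 8 crushed above all 8 uncrushed libraries (1.84% of all genes). Of the 7 class II genes 0 did so in each of these comparisons, a count near these background shares, and Ciita alone had all crushed vehicle libraries below all uncrushed vehicle ones, where 4.75% of all genes did. The summed level of B2m, H2-K1 and H2-D1 divided by that of H2-Aa, H2-Ab1, H2-Eb1 and Cd74 was 14.5, 17.3, 11.9, 19.1 and 16.6 in crushed DLKi retinas, against 7.34, 14.2, 12.6, 14.5 and 7.31 in uncrushed DLKi retinas. With vehicle it was 31.1, 12.2 and 7.93 in crushed and 6.26, 8.53 and 8.61 in uncrushed retinas. This ratio was higher in most crushed libraries and overlapped between the groups under both drugs. Within the crushed DLKi group the class I genes also differed by retina. Replicates 3 and 5 held the lowest 2 values of B2m, H2-K1, H2-D1, H2-Q4, H2-Q6, H2-T22, H2-T23, Tap1, Psmb8, Psmb9 and Nlrc5. Replicate 4 held the highest of H2-Q4, H2-T22, H2-T23, Tap1, Psmb8 and Nlrc5, but not of B2m, H2-K1 or H2-D1. On the first principal component of all genes replicates 3 and 5 stood at -6.92 and -7.77, against -32.4 to -21.6 for the other crushed libraries and 11.2 to 31.6 for the uncrushed ones. Without replicate 3, and likewise without replicate 5, 13 members were called with the inhibitor, beside 4.78% and 4.83% of all genes.

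Microglia markers rose beside class I. Of 10 microglia markers 7 rose with the inhibitor and 2, Tmem119 and Itgam, with vehicle, and 10 of 10 values were positive under each drug. In the mean effect over both drugs 10 of 10 rose, where 5.22% of all genes rose. DESeq2 called 10 with the inhibitor and 4 with vehicle, where it called 4.38% and 2.38% of 29449 genes, a base that includes genes of low count. The call of Tmem119 with vehicle was lost without any 1 of 12 libraries, all but crushed DLKi 1, 2 and 5 and crushed vehicle 3. That of Itgam was lost without any 1 of 10, all but crushed DLKi 1 and 3, uncrushed DLKi 1 and 5, crushed vehicle 3 and uncrushed vehicle 2. Their summed level was 35.4 to 61.9 nRPKM in crushed DLKi, 26.3 to 36.4 nRPKM in uncrushed DLKi, 45.7 to 51.8 nRPKM in crushed vehicle and 32.8 to 35.05 nRPKM in uncrushed vehicle retinas. Crushed DLKi replicates 3 and 5 were lowest of their group here as well, at 40.0 and 35.4 nRPKM. Of 6 macrophage and monocyte markers tested 2, Cd68 and Adgre1, rose with the inhibitor and 1, Cd68, with vehicle. The call of Adgre1 was lost without crushed DLKi 1 or 2 or uncrushed DLKi 2, 3 or 4 (adjusted p up to 0.0898). The macrophage and monocyte markers summed to 6.23 to 12.3 nRPKM in crushed DLKi, 3.19 to 7.25 nRPKM in uncrushed DLKi, 6.89 to 11.03 nRPKM in crushed vehicle and 5.53 to 7.46 nRPKM in uncrushed vehicle retinas. The part of these cells in the rise of class I genes was not tested. Natural killer cell markers were at or near 0, with 0 to 2 reads in each library for Ncr1, Klrb1c, Klrk1, Gzma, Gzmb and Prf1. Of 6 T cell markers Cd3e, Cd3d and Cd3g, which define these cells, had 0 to 4 reads in each library. The other 3, Cd4, Cd8a and Lck, were tested and had positive values under both drugs. Lck, at 28 to 53 reads in crushed and 12 to 32 reads in uncrushed libraries, rose in the mean effect (0.77 ± 0.15, adjusted p = 0.00217). With vehicle Lck rose by 0.96 ± 0.24 (adjusted p = 0.0397), a call DESeq2 did not make. It was lost without any library except crushed DLKi 2, 4 and 5, uncrushed DLKi 1 and 5 and uncrushed vehicle 3 (adjusted p up to 0.239). The summed T cell level was 0.518 to 0.643 nRPKM in crushed DLKi, 0.365 to 0.423 nRPKM in uncrushed DLKi, 0.611 to 0.637 nRPKM in crushed vehicle and 0.285 to 0.368 nRPKM in uncrushed vehicle retinas. The part of T cells in the class I values was not tested. Of dendritic cell markers Flt3 fell under both drugs (-0.63 ± 0.16 with the inhibitor, -0.99 ± 0.22 with vehicle). Its call was lost without crushed DLKi 1, 4 or 5 or uncrushed DLKi 1 or 4 with the inhibitor (adjusted p up to 0.0803), and without crushed vehicle 2 or 3 or uncrushed vehicle 2 or 3 with vehicle (up to 0.0768). Itgax, at 7 to 23 reads in crushed and 1 to 9 reads in uncrushed libraries, was not called under either drug by edgeR or DESeq2 (1.32 ± 0.44 with the inhibitor and 1.61 ± 0.53 with vehicle). Its mean effect over both drugs was called by both tools (1.46 ± 0.35, adjusted p = 0.01 in edgeR). The 5 genes whose log2 level was most like that of B2m over the 16 libraries, outside the members, were C1qb (Pearson r = 0.956), Bst2, Irf1, Clu and Nckap1l (r = 0.943). They were picked as the highest of all genes tested, and the 16 libraries share the crush.

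The genes most like Cd74 over the 16 libraries were others, namely Msx1os (Pearson r = 0.951), Fbln7, Mecom, Rhoj and Msx1 (r = 0.921), picked in the same way. Optc, Zic1, Wfdc1 and Otx1, genes of the ciliary body at the rim of the retina, were then summed, a list added after the data had been seen. Their sum was 7.33 to 26.6 nRPKM in crushed DLKi, 6.04 to 39.7 nRPKM in uncrushed DLKi, 4.12 to 28.9 nRPKM in crushed vehicle and 17.7 to 31.8 nRPKM in uncrushed vehicle retinas. Summed class II levels were 6.58 to 11.9, 5.36 to 12.3, 5.45 to 11.8 and 7.97 to 9.62 nRPKM in the same groups. Uncrushed DLKi replicate 1 held the highest of both sums and crushed vehicle replicate 1 the lowest ciliary body sum beside a class II sum of 5.45 nRPKM. With the ciliary body score as a covariate, an alternative added after seeing the data, the mean crush effect of H2-Eb1 was 0.59 ± 0.17 (adjusted p = 0.0343), where it was 0.45 without the covariate. H2-Eb1 was the only class II gene called there. In that edgeR fit Cd74 stood at 0.35 ± 0.16 (unadjusted p = 0.0477, adjusted p = 0.284) and H2-DMa at 0.21 ± 0.09 (unadjusted p = 0.0333, adjusted p = 0.224). H2-Aa, H2-Ab1, H2-DMb1 and Ciita had an unadjusted p above 0.05, and Ciita was negative at -0.07. Without the covariate 0 of the 7 class II genes had an unadjusted p below 0.05 in the mean effect. The mean effect of H2-M3 was called in that fit as well (0.56 ± 0.14, adjusted p = 0.0154), and so was B2m with vehicle (adjusted p = 0.0485). The fit lost the vehicle call of Psmb8 (adjusted p = 0.0513) and the mean call of Erap1 (adjusted p = 0.0765). The part of ciliary body tissue in the class II levels was not tested beyond this fit.

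**Figure D4:**
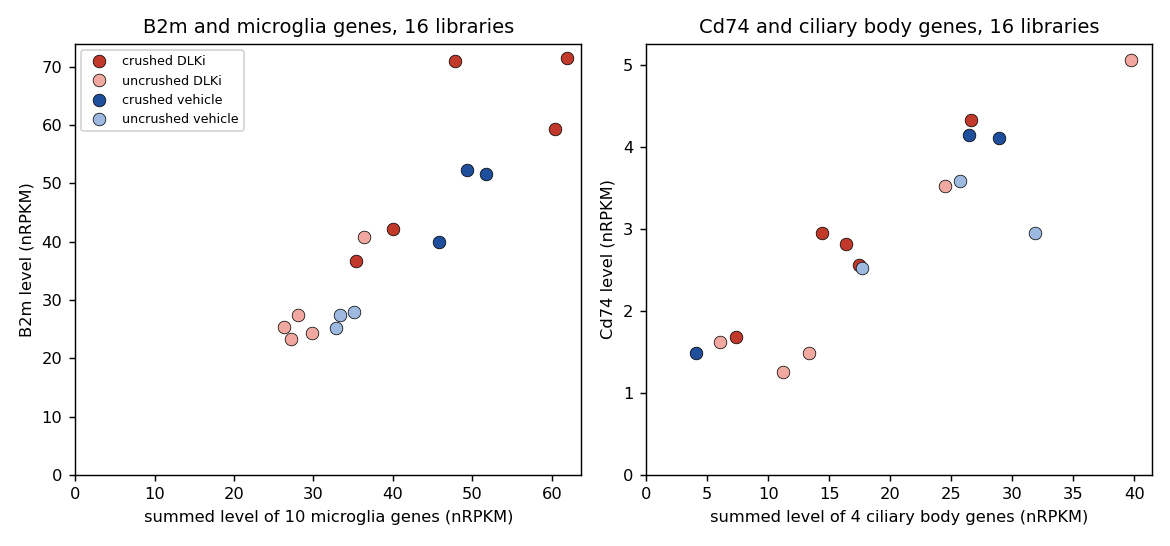
The left panel sets the B2m level (y axis, nRPKM) against the summed level of 10 microglia genes (x axis, nRPKM), and the right panel sets the Cd74 level against the summed level of 4 ciliary body genes, with 1 point for each of the 16 libraries coloured by group. The 5 highest B2m levels, 51.5 to 71.5 nRPKM, are crushed libraries with a microglia sum of at least 47.9 nRPKM, while Cd74 runs from 1.25 to 5.06 nRPKM along the ciliary body sum with crushed and uncrushed libraries mixed.

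The last comparisons asked whether the inhibitor changed these genes. In crushed retina, DLKi against vehicle, 0 of 30 members were called by edgeR, 0 had an unadjusted p below 0.05 and DESeq2 called 0, where 0.505% of all genes were called. Log2 differences ran from -0.27 for H2-Aa to 0.25 for H2-T23. The 95% interval was -0.18 to 0.63 for B2m, -0.31 to 0.44 for H2-K1, -0.35 to 0.30 for H2-D1, -0.31 to 0.56 for Psmb8 and -0.57 to 0.58 for Nlrc5. The missed threshold does not show equal levels. In uncrushed retina, again 0 of 30 were called by edgeR and by DESeq2, with 3 at an unadjusted p below 0.05, where 0.629% of all genes were called. These 3 were H2-Q7 (0.82 ± 0.35, adjusted p = 0.246), Psme2 (-0.21 ± 0.09, adjusted p = 0.249) and Ciita (-0.60 ± 0.19, adjusted p = 0.144). The Ciita values were 0.122 to 0.172 nRPKM in uncrushed DLKi and 0.204 to 0.281 nRPKM in uncrushed vehicle retinas and did not overlap.

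The crush effect with the inhibitor minus that with vehicle was tested as a difference for each gene. Of the 30 members 0 were called by edgeR, 0 had an unadjusted p below 0.05 and DESeq2 called 0, where 0.0103% of all genes were called. The difference was 0.15 ± 0.29 for B2m and 0.43 ± 0.42 for H2-T23, and it ran from -0.96 for H2-Q7 to 0.52 for H2-M3. The genes called with the inhibitor and not with vehicle are therefore not shown to differ between the drugs.

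**Figure D5:**
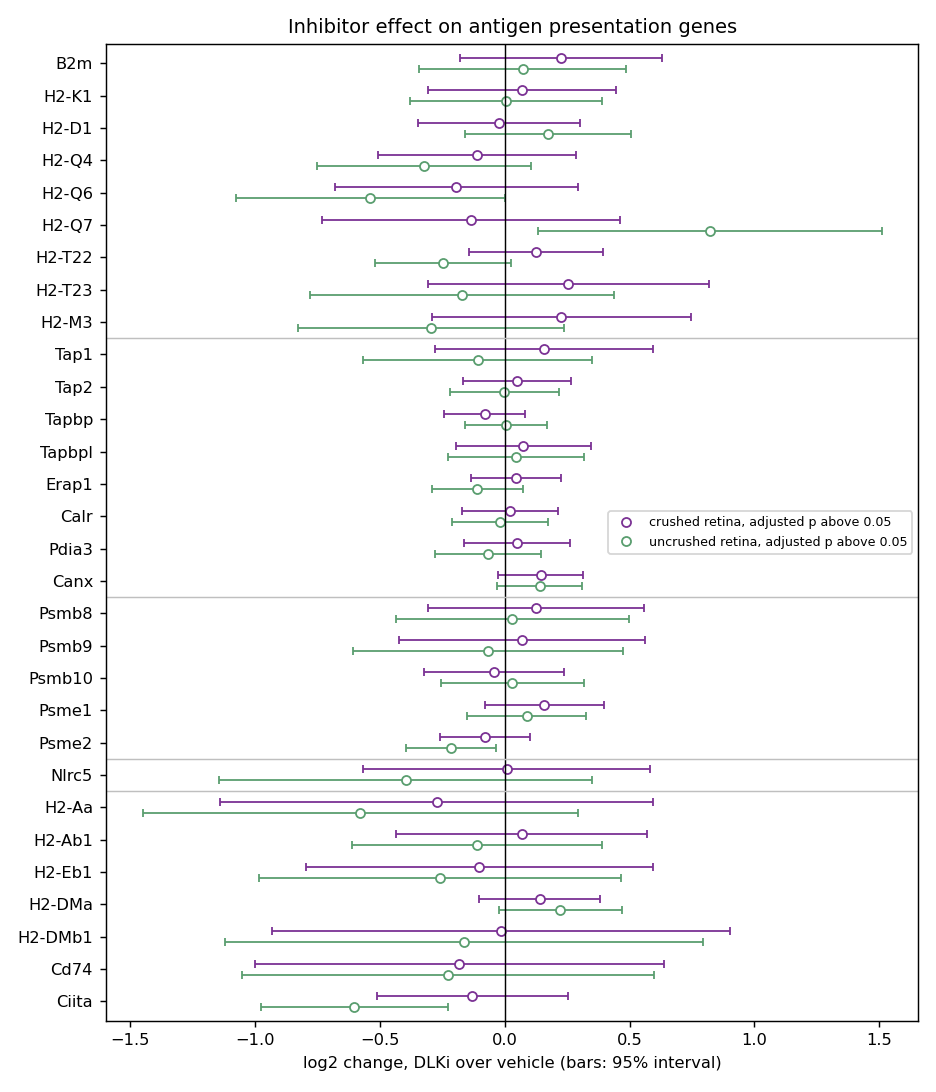
The log2 difference of DLKi over vehicle (x axis, with 95% intervals as bars) is drawn for each of the 30 genes, in purple for crushed and in green for uncrushed retina. All points are open, since no adjusted p was at most 0.05, and in crushed retina every interval crosses 0.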

How the data were processed

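RNA of 16 mouse retinas was sequenced as poly(A)-selected libraries in single-end reads of 50 bases, with a kit that does not mark strand, per the labels' protocols. The authors deposited, per the file headers, raw counts of uniquely aligned reads per gene and a normalized level, nRPKM, which is RPKM scaled by a size factor for each library. Reads were aligned with GSNAP and the build was GRCm38, per the submitters' processing notes. Tool versions: not given in the sources used here. Entrez identifiers were matched to RefSeq symbols (31049 of 36528).

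Counts were tested in edgeR 4.0.16 (R 4.3.3) with TMM scaling, filterByExpr and the quasi-likelihood F test, in 1 fit of 16 libraries with a mean for each group, and p-values were adjusted by Benjamini-Hochberg over 19391 genes. A gene was called at an adjusted p of at most 0.05. SE is the log2 change divided by the root of F, and 95% intervals are 1.96 SE either way. That is the value for a normal distribution, so the intervals are somewhat narrower than the F test would give. DESeq2 1.42.0 was an alternative among 24 settings. The fit was tested on simulated data. Members, lists and tests were chosen with earlier results of these data known. 1 gene of the transcription factor list and 1 marker list are not reported here. Values are given for every library for each of the 30 genes called in a crush comparison, and for the chaperones by their range. The 2 ciliary body and pigment epithelium lists and the covariate fit were added after seeing the data; neither list had a gene called. No 2 libraries of the same group agreed within sampling noise, and pairs across groups were not compared.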

Additional observations from a re-analysis of the deposited data

Results flagged for a closer look

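In 4 cases the level of a member in 1 library stood apart from the rest of its group by Dixon's test for a single distant value, which was run on the 60 groups of 5 libraries. Chance gives about 1 in 20 such groups. B2m measured 40.7 nRPKM in uncrushed DLKi replicate 1, against 23.3 to 27.4 nRPKM in the other uncrushed DLKi retinas. In the same library H2-M3 measured 1.42 nRPKM, against 0.626 to 0.757 nRPKM in the others. Tapbp measured 26.8 nRPKM there, against 23.1 to 23.6 nRPKM in the others. That library also held the highest ciliary body sum of all, 39.7 nRPKM. Nlrc5 measured 0.721 nRPKM in crushed DLKi replicate 4, against 0.194 to 0.344 nRPKM in the other crushed DLKi retinas. The part of the libraries' composition in these values was not tested.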

How the results depend on the processing

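No log2 change of a member that had been called turned its direction under the 24 alternative settings. With the inhibitor 10 to 13 members were called without 1 library at a time, beside 3.86% to 6.38% of all genes. With vehicle it was 2 to 5, the 2 being without crushed vehicle replicate 2, beside 1.4% to 2.6% of all genes. The mean effect called 12 to 16, beside 6.67% to 9.07% of all genes. The inhibitor comparisons and the difference of crush effects called 0 members in every setting run. With vehicle DESeq2 called 7 members and 702 of 29449 genes (2.38%), beside 4 members and 510 of 19391 genes (2.63%) in edgeR. The 2 shares differ in their base, since the DESeq2 one includes genes of low count that edgeR left out. Without 1 library at a time the median class I change was 0.53 to 0.73 with the inhibitor and 0.23 to 0.47 with vehicle, and the median class II change was 0.11 to 0.54 and -0.11 to 0.32. Consecutive library numbers were tried as a replicate block for pairing retinas. Deviations of the 8 pairs correlated at 0.0448 to 0.438, 1 of them under 0.1, and 7 of 8 crushed retinas correlated best with their own number, a hint from the data and not the design. With the block 16 members were called with the inhibitor, 8 with vehicle and 17 in the mean, while the share of all genes called went up as well, to 10.7%, 6.36% and 14.5%. Low counts limit H2-DMb1, H2-Q7, H2-Aa, Ciita and uncrushed Nlrc5.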
